A study of Sus scrofa with 6 samples.

Results

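The 9 genes described here encode the core of transforming growth factor beta (TGF-beta) signalling: the ligands TGFB1, TGFB2 and TGFB3, the receptors TGFBR1, TGFBR2 and TGFBR3, the intracellular mediators SMAD3 and SMAD7, and the induced matrix protein TGFBI. They were found by their symbol in the deposited gene table, which held 8 of the 9 among its 22861 genes. The symbol SMAD3 was absent from it. All 8 passed the filter on low counts and were tested in all 6 pools. The comparison was between abdominal aorta with atherosclerotic lesions from WMS FH swine and lesion-free abdominal aorta from WMS normal swine. WMS is the Wisconsin Miniature Swine, a laboratory breed, and FH stands for familial hypercholesterolaemia, an inherited excess of blood cholesterol. The labels name no allele, age, sex or diet. RNA of 11 lesion animals was combined into 3 pools (pools 1, 2 and 3), and RNA of 11 lesion-free animals into another 3 (pools 4, 5 and 6). Because every lesion pool came from FH swine and every lesion-free pool from normal swine, the effects of lesion and of swine line cannot be told apart. A pool was the unit of replication, and p-values measure the spread between pools, not between animals.

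TGF-beta ligands are secreted in a latent complex, bound to their own propeptide and to latent TGF-beta binding proteins of the matrix, and must be released before they can signal. The freed ligand binds TGFBR2, which then phosphorylates TGFBR1. The activated TGFBR1 phosphorylates SMAD2 and SMAD3, which join SMAD4 and enter the nucleus, where they switch on matrix genes and also SMAD7, an inhibitor that closes the loop. In the arterial wall this pathway is known for holding smooth muscle cells in a contractile state and for driving the synthesis of collagen and elastic fibres.

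Levels are library-scaled counts (CPM), that is, the deposited read count as a rate on the pool's scaled library size, brought to the same base in each pool. They are not divided by gene length, so a level is compared between pools and never between genes. The pools held 4650176 counts (lesion pool 1) to 11442433 counts (lesion pool 3). The least that could be told from 0, set at 3 counts, was 0.577 CPM in lesion pool 1 and 0.268 to 0.36 CPM in the other pools, far under the level of every gene of the 8. A log2 fold is lesion over lesion free, from limma, and its p carries a Benjamini-Hochberg adjustment across the 11673 genes tested. A gene with an adjusted p under 0.05 is called changed. Lesion pool 1 had the lowest total. Across genes, its log2 CPM had a Pearson correlation of 0.79 with lesion pools 2 and 3, which reached 0.91 between them. Among lesion-free pools it was 0.83 for pools 4 and 5, 0.88 for 4 and 6, and 0.89 for 5 and 6. Chi-square per degree of freedom, larger where 2 pools differ more, set lesion-free pool 4 apart instead. It was 74.3 and 103 for pool 4 with pools 5 and 6, against 23.2 between pools 5 and 6. For lesion pool 1 it was 66.9 and 61.5 with pools 2 and 3, against 58.5 between those pools. Smooth muscle markers were abundant in every pool, with a summed level of 29164 to 42092 CPM over 5 genes in lesion pools and 67495 to 79044 CPM in lesion-free pools.

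None of the 8 genes was called. In the lesion pools TGFB1, TGFBR1 and TGFBR2 had fitted levels 1.73 to 1.78 times those of the lesion-free pools, TGFB3 averaged lower, and TGFBI was slightly lower in all 3 lesion pools. Over all genes tested 0.968% were called higher and 0.0771% lower in lesion pools, so 0 of 8 does not set these genes apart from the rest. At an unadjusted p under 0.05, 3 of the 8 were higher (TGFB1, TGFBR1 and TGFBR2) and 0 lower, beside 6.49% higher and 4.15% lower over all genes. The median log2 fold was 0.06 over the 8 genes and -0.00218 over all genes. With limma-trend in place of voom, again 0 of the 8 were called. Without lesion pool 1 the log2 folds of 7 of the 8 kept their sign, from -0.56 for TGFB3 to 0.83 for TGFB1, and SMAD7 did not.

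**Figure D1:**
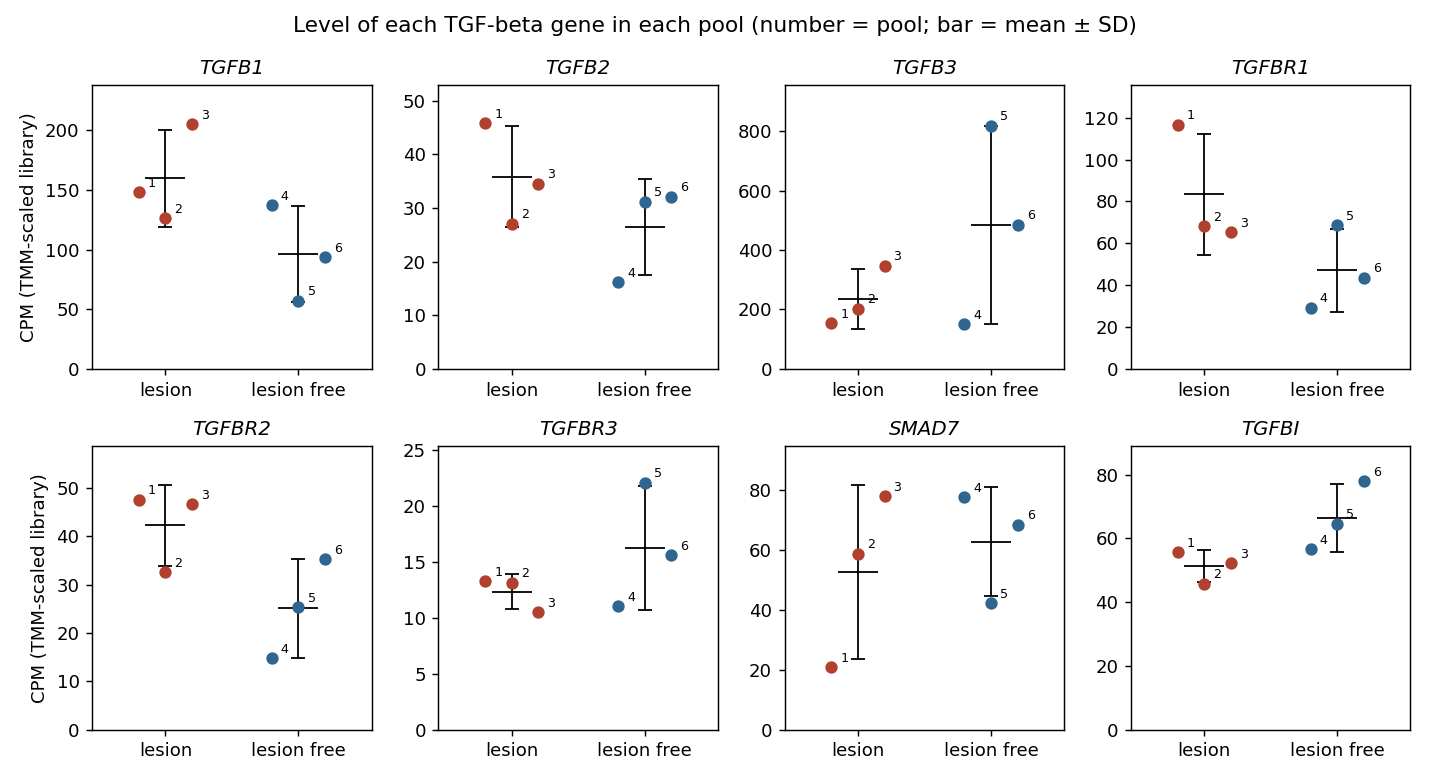
Level of each gene in each pool, in CPM on an axis that starts at 0, with lesion pools on the left (red) and lesion-free pools on the right (blue); numbers name the pools, and bars give the mean and SD of 3 pools. TGFBI is the only panel in which the groups do not overlap, by a margin of 55.6 CPM in lesion pool 1 against 56.6 CPM in lesion-free pool 4, and TGFB3 has the widest spread among lesion-free pools, at 151 to 819 CPM.

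Of the ligands, TGFB1 is the form most studied in vascular and immune cells. It stood at 148, 126 and 205 CPM in lesion pools 1, 2 and 3, against 137, 57.1 and 93.6 CPM in lesion-free pools 4, 5 and 6. The groups overlapped only through lesion-free pool 4, which lay above lesion pool 2. TGFB1 averaged 160 ± 40.7 CPM in lesion pools and 96.0 ± 40.2 CPM in the lesion-free group (SD over 3 pools each), with a log2 fold of 0.79 (SE 0.33, 95% interval 0.09 to 1.49, limma adjusted p = 0.405). Most tested markers of macrophages, a cell type that makes TGFB1, were higher in the lesion pools. CD14 and MRC1 were not called and overlapped between groups, with log2 folds of 0.59 and -0.91. The CD163 entry, too low to be tested, is named SCART1 in the reference table of gene names. Of 8 tested macrophage markers 6 were called higher and 0 lower, and the summed level of all 9 entries on the list ran from 1030 to 1751 CPM in lesion pools and from 166 to 324 CPM in lesion-free pools, with none at 0 in every pool. Platelets also store TGFB1. The summed level of 7 platelet entries was 0 to 4.20 CPM in lesion pools and 2.95 to 5.64 CPM in lesion-free pools, with 4 entries at 0 in every pool (both of PPBP, 1 of PF4 and GP1BB), while ITGA2B had counts in 5 pools, TUBB1 in 4 and the other PF4 entry in 1. The reference table of gene names used here gives GPATCH8 for the ITGA2B entry. That entry held 3.49 of the 4.20 CPM in lesion pool 2. In lesion-free pools 4 and 6 it held all of 3.56 CPM and 1.42 of 2.95 CPM. The part of macrophages and platelets in the TGFB1 level was not tested, and in bulk tissue fewer cells of a type and less RNA per cell cannot be told apart.

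TGFB3, a ligand of mesenchymal tissues, had the opposite tendency and a much wider spread. It stood at 154, 203 and 348 CPM in lesion pools 1, 2 and 3, against 151, 819 and 485 CPM in lesion-free pools 4, 5 and 6. Lesion-free pool 4 was the lowest of all 6 pools, while lesion-free pools 5 and 6 lay above every lesion pool. The mean was 235 ± 101 CPM in lesion pools and 485 ± 334 CPM in the lesion-free group (SD over 3 pools each), and the log2 fold was -0.82 (SE 0.57, 95% interval -2.12 to 0.47, limma adjusted p = 0.647). Highest and lowest lesion-free pools differed 5.41-fold, and 13.4% of all genes tested had a wider range among lesion-free pools. The log2 fold therefore depended on which lesion-free pool entered. It was -1.50 without pool 4 (limma adjusted p = 0.0705) and -0.29 without pool 5, and the gene was not called in either case.

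TGFB2, the ligand best known from heart and vessel development, stood at 45.8, 27.1 and 34.5 CPM in lesion pools 1, 2 and 3, against 16.2, 31.2 and 32.1 CPM in lesion-free pools 4, 5 and 6. The groups overlapped, with lesion-free pool 4 lowest and lesion pool 1 highest. Its log2 fold was 0.42 (SE 0.36, 95% interval -0.35 to 1.20, limma adjusted p = 0.71).

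The balance of the ligands inside each pool does not depend on how the libraries were scaled. Of the counts of all 3 ligand genes in a pool, TGFB3 took 44.3%, 57.0% and 59.2% in lesion pools 1, 2 and 3, and 49.6%, 90.3% and 79.4% in lesion-free pools 4, 5 and 6. Exact Clopper-Pearson intervals, which cover counting error only, ran from 42.0% to 46.7% for the lowest of these shares and from 89.6% to 90.9% for the highest. The mean TGFB3 share was 53.5 ± 8.02% in lesion pools and 73.1 ± 21.0% in lesion-free pools (SD, n = 3 each), a difference of -19.6 percentage points (exact two-sided permutation test, p = 0.3). The mean TGFB1 share was 37.6 ± 4.24% in lesion pools and 22.2 ± 20.3% in lesion-free pools (exact permutation p = 0.4), and lesion-free pool 5 had the lowest, at 6.29%. For TGFB2 every lesion pool, at 13.2%, 7.6% and 5.88%, lay above every lesion-free pool, at 5.31%, 3.44% and 5.26% (exact permutation p = 0.1). That is the smallest p that 3 pools against 3 can give.

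**Figure D2:**
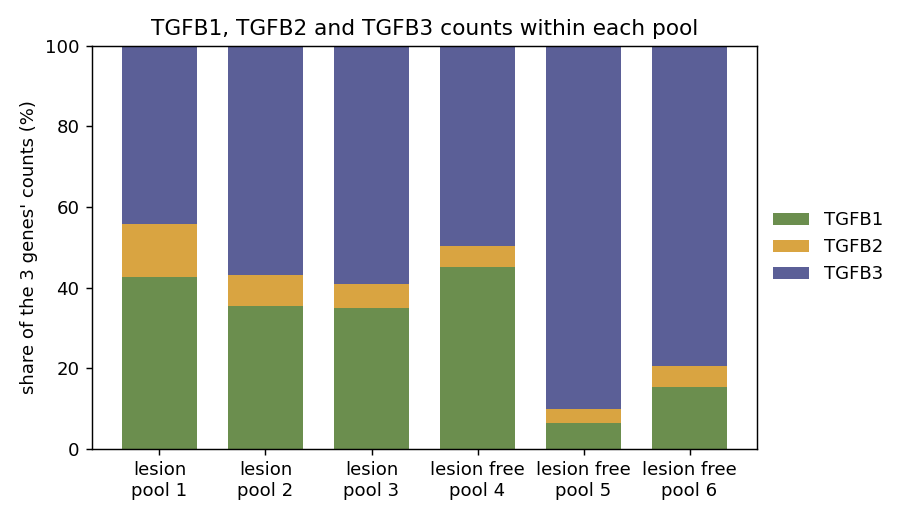
Share of the counts of TGFB1, TGFB2 and TGFB3 together that each gene took, in percent, with 1 bar per pool and lesion pools on the left. Lesion-free pool 5 was 90.3% TGFB3, while lesion-free pool 4, at 49.6%, lay among the lesion pools, at 44.3% to 59.2%. Shares of counts are not shares of molecules, since gene length was not taken into account.

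Among the receptors, TGFBR1, the type I receptor kinase that phosphorylates SMAD2 and SMAD3, stood at 117, 68.3 and 65.3 CPM in lesion pools 1, 2 and 3, against 29.2, 68.6 and 43.5 CPM in lesion-free pools 4, 5 and 6. Lesion pool 1 was far above the rest, and lesion-free pool 5 lay between lesion pools 1 and 2. The mean was 83.4 ± 28.8 CPM in lesion pools and 47.1 ± 19.9 CPM in the lesion-free group (SD over 3 pools each), with a log2 fold of 0.83 (SE 0.35, 95% interval 0.09 to 1.57, limma adjusted p = 0.408). Without lesion pool 1 the log2 fold of TGFBR1 was 0.60 (adjusted p = 0.617). TGFBR2, the type II kinase that binds ligand first, stood at 47.5, 32.5 and 46.6 CPM in lesion pools 1, 2 and 3, against 14.8, 25.3 and 35.2 CPM in lesion-free pools 4, 5 and 6. Only lesion-free pool 6 reached into the range of the lesion pools. Its log2 fold was 0.79 (SE 0.37, 95% interval 0.01 to 1.57, limma adjusted p = 0.466), close to that of TGFBR1. A second transcript named TGFBR2-201 lay outside this gene count. It held 31, 208 and 94 counts in lesion pools 1, 2 and 3, and 27, 103 and 94 in lesion-free pools 4, 5 and 6. The TGFBR2 level with that transcript included was not tested.

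TGFBR3, also called betaglycan, is a co-receptor without a kinase that presents TGFB2 to TGFBR2. It did not share the tendency of the kinases. It stood at 13.3, 13.1 and 10.5 CPM in lesion pools 1, 2 and 3, against 11.0, 22.1 and 15.6 CPM in lesion-free pools 4, 5 and 6. The lesion pools varied little, and lesion-free pool 4 lay among them. The log2 fold was -0.36 (SE 0.42, 95% interval -1.25 to 0.54, limma adjusted p = 0.798), on 331 lesion counts and 439 lesion-free counts in sum.

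SMAD7, the inhibitory SMAD that is itself a TGF-beta target, stood at 20.8, 58.6 and 77.9 CPM in lesion pools 1, 2 and 3, against 77.4, 42.2 and 68.4 CPM in lesion-free pools 4, 5 and 6. Apart from the low lesion pool 1, the pools of both groups covered the same range. The log2 fold was -0.30 (SE 0.42, 95% interval -1.20 to 0.61, limma adjusted p = 0.84). Its sign rested on lesion pool 1, since it was 0.15 without that pool and 0.07 with sample quality weights, which give each pool its own precision. A second transcript named SMAD7-001 lay outside this gene count, which was 108 in lesion pool 1. It held 143, 231 and 314 counts in lesion pools 1, 2 and 3, and 425, 272 and 328 in lesion-free pools 4, 5 and 6. The SMAD7 level with that transcript included was not tested.

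SMAD3 itself, the receptor-activated SMAD, could not be read by symbol. The table held 2 entries with the symbol SMAD2, and the reference table of gene names used here gives SMAD3 as the name of the second, ENSSSCG00000004952. Which of the names is right could not be settled from the deposited table, and the entry was kept outside the 8 genes. It stood at 40.6, 62.8 and 65.8 CPM in lesion pools 1, 2 and 3, against 48.0, 55.8 and 62.2 CPM in lesion-free pools 4, 5 and 6. The groups covered the same range, with a log2 fold of 0.04 (SE 0.29, 95% interval -0.58 to 0.67, limma adjusted p = 0.975). The other entry, ENSSSCG00000004505, is SMAD2 in both tables. It stood at 20.2, 22.8 and 26.0 CPM in lesion pools 1, 2 and 3, against 17.7, 4.32 and 14.1 CPM in lesion-free pools 4, 5 and 6. The groups did not overlap, and the gene was not called at a log2 fold of 1.14 (SE 0.48, limma adjusted p = 0.41).

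TGFBI, a secreted matrix protein named for its induction by TGF-beta, varied least from pool to pool. It stood at 55.6, 45.8 and 52.3 CPM in lesion pools 1, 2 and 3, against 56.6, 64.6 and 77.9 CPM in lesion-free pools 4, 5 and 6. It was the 1 gene of the 8 whose groups did not overlap, and it was lower in the lesion pools. Of all genes tested, 10.5% had every lesion pool above every lesion-free pool and 8.97% had every one below, so 0 higher and 1 lower of 8 is near the background. The mean was 51.2 ± 5.02 CPM in lesion pools and 66.4 ± 10.8 CPM in the lesion-free group (SD over 3 pools each), with a log2 fold of -0.38 (SE 0.28, limma adjusted p = 0.653). The 95% interval ran from -0.97 to 0.21 and so left out any rise above 0.21 on the log2 scale. TGFBI is also made by macrophages, most of whose tested markers were higher in the lesion pools as given above. The part of macrophages in the TGFBI level was not tested.

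**Figure D3:**
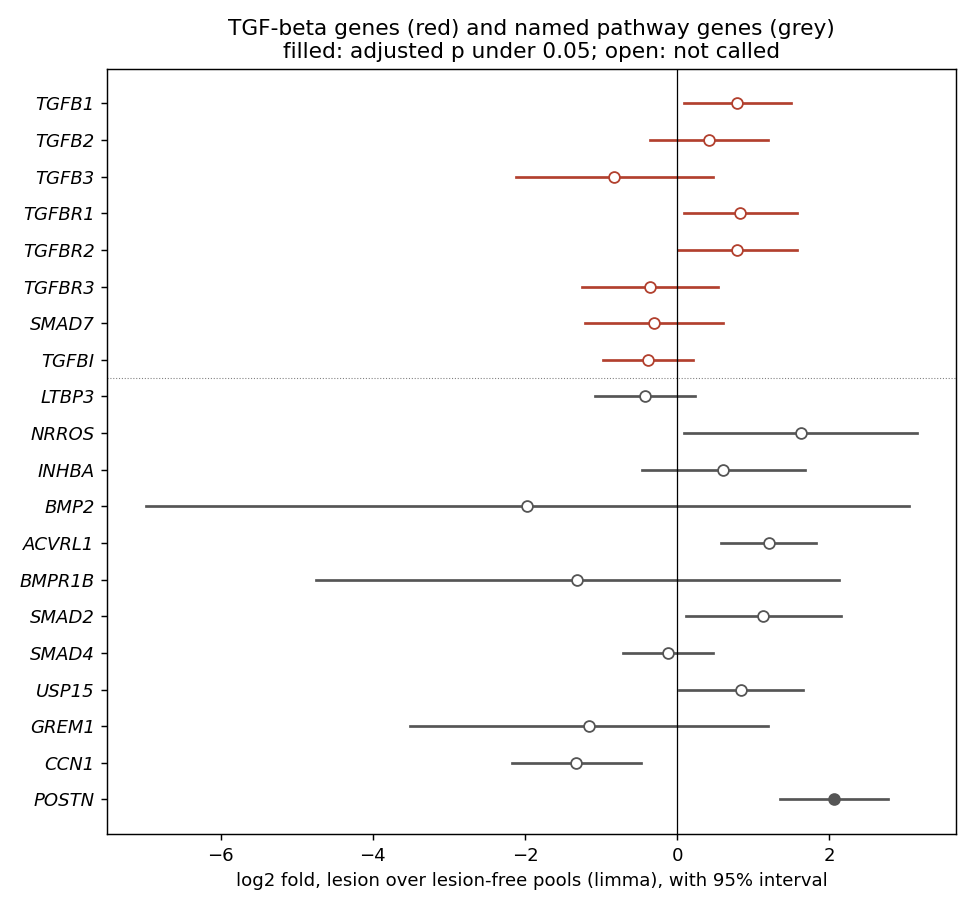
Log2 fold of lesion over lesion-free pools with its 95% interval from limma, for the 8 TGF-beta genes (red, above the dotted line) and for pathway genes named by a rule (grey). POSTN, at 2.06, has the only filled point, an adjusted p under 0.05, and the intervals of BMP2 (second entry), BMPR1B and GREM1 are the widest shown.

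The isoform table gave several tied transcripts for 6 of the 8 genes. Isoforms were tied to the gene of their name where their counts summed to the gene count within 2 counts in every pool. A second transcript named TGFBR2-201 and a second named SMAD7-001 lay outside these sums and were left out. Of 20 tied isoforms with a count, 14 were tested and 0 were called. Of all 12666 isoforms tested, 0.418% were called higher and 0.0316% lower. A shift in the balance between isoforms of 1 gene (isoform use) was tested by limma's diffSplice in 6 of the 8 genes, and 0 were called, where 0.657% of 609 genes were. The limma adjusted p lay between 0.78 for TGFB1 and 1 for TGFB2.

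Pools differed widely in isoform shares, and the groups overlapped in each of the shares given here. TGFB1-201 made up 94.8%, 61.9% and 73.8% of the TGFB1 count in lesion pools 1, 2 and 3, and 70.4%, 48.9% and 73.4% in lesion-free pools 4, 5 and 6. Lesion pool 1 was highest and lesion-free pool 5 lowest. TGFB3-201 made up 30.8%, 30.8% and 28.5% of the TGFB3 count in lesion pools 1, 2 and 3, and 63.2%, 38.0% and 20.1% in lesion-free pools 4, 5 and 6. The lesion pools were nearly alike, and the lesion-free pools lay on both sides of them. The tied transcript named TGFBR2-201 took 38.5% of the TGFBR2 count in lesion pool 1 and 38.7% in lesion-free pool 4. It took at most 4.95% in any other pool. The untied transcript of the same name is not in these shares. It held 31, 208 and 94 counts in lesion pools 1, 2 and 3, and 27, 103 and 94 in lesion-free pools 4, 5 and 6. For TGFBR3, TGFBR3-001 was at 0 in lesion pool 1 and lesion-free pools 4 and 5 and reached 55.6% in lesion-free pool 6, on 85 counts. Isoform counts are estimates that share reads between transcripts, and the uncertainty of that sharing was not part of the table.

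**Figure D4:**
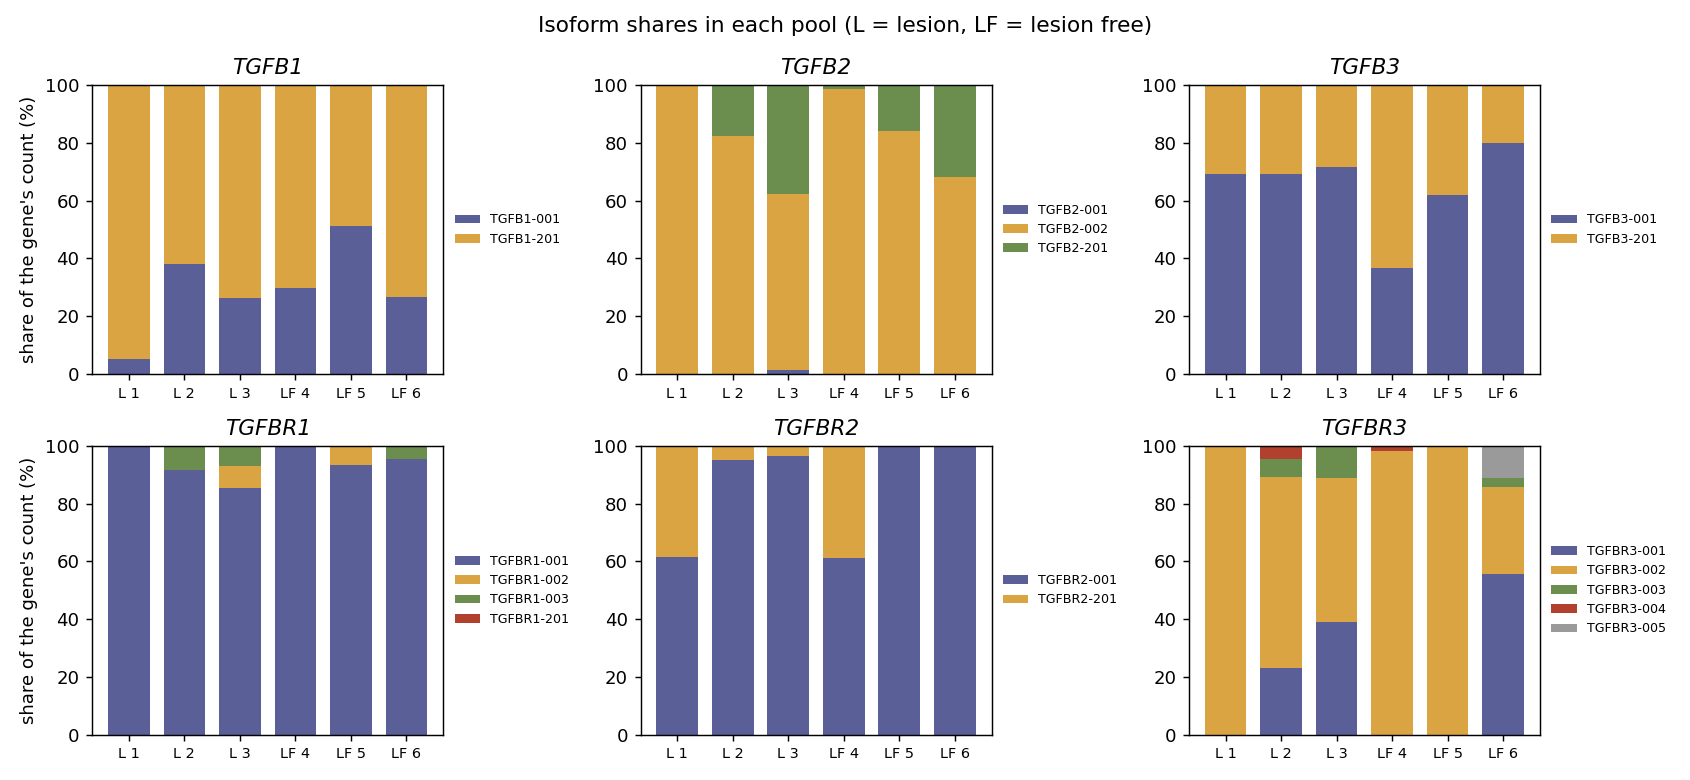
Share of each isoform in its gene's count, in percent, for the 6 genes with several isoforms, with 1 bar per pool and lesion pools (L) left of lesion-free pools (LF). Only transcripts tied to their gene are shown. The tied TGFBR2-201 appears at 38.5% in lesion pool 1 and 38.7% in lesion-free pool 4, and the TGFB3-201 share runs from 20.1% to 63.2% among lesion-free pools.

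The wider pathway was read from lists of 103 genes, of which 85 were found as 86 entries and 76 entries were tested. Of these 1 was called higher and 0 lower, beside 0.968% and 0.0771% of all genes, with a median log2 fold of 0.15 beside -0.00218 over all genes. At an unadjusted p under 0.05, 10 of the 76 were higher and 3 lower, beside 6.49% and 4.15% of all genes. Genes of ligand latency and activation, which hold TGF-beta in the matrix or release it, had 0 of 14 called and a median of 0.34. NRROS, which tethers latent TGF-beta on macrophages and microglia, had the highest log2 fold of that list, at 1.62 (limma adjusted p = 0.437). It stood at 7.12, 9.21 and 9.78 CPM in lesion pools 1, 2 and 3, against 4.96, 2.52 and 1.93 CPM in lesion-free pools 4, 5 and 6, and the groups did not overlap. LTBP3, a latent TGF-beta binding protein, had the lowest, at -0.42, which was -0.11 without lesion pool 1.

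Among 8 tested entries of other receptors of the family 0 were called, with a median of 0.44. ACVRL1, the endothelial type I receptor ALK1, came nearest. It stood at 62.8, 83.6 and 94.1 CPM in lesion pools 1, 2 and 3, against 31.8, 40.2 and 33.0 CPM in lesion-free pools 4, 5 and 6. Every lesion pool lay above every lesion-free pool, with a log2 fold of 1.21 (SE 0.29, limma adjusted p = 0.0709). It was called higher in 3 of the 12 alternatives. These were the limma fits without lesion pool 1 (adjusted p = 0.0281), with sample quality weights (0.00802) and with plain library totals (0.0302). Plain totals also moved the median log2 fold of all genes to 0.16. Over all 12 alternatives the adjusted p of ACVRL1 reached 0.281. The endothelial marker PECAM1 also stood higher, at 264, 334 and 279 CPM in lesion pools 1, 2 and 3, against 185, 175 and 153 CPM in lesion-free pools 4, 5 and 6, with a log2 fold of 0.77 (limma adjusted p = 0.234). The summed level of the 6 endothelial entries was 316 to 389 CPM in lesion pools and 209 to 219 CPM in lesion-free pools, none was at 0 in every pool, and 0 of 5 tested were called. PECAM1 made up most of that sum. Of the others, TEK was above every lesion-free pool in every lesion pool, and VWF, KDR and CLDN5 overlapped. The VWF entry is named ANO2 in the reference table of gene names, so it may not be an endothelial marker. EMCN, too low to be tested, was lower in every lesion pool, at 0, 0 and 0.366 CPM against 0.648, 0.48 and 0.61 CPM in lesion-free pools. The part of endothelial cells in the ACVRL1 level was not tested. BMPR1B, a bone morphogenetic protein receptor, had the lowest log2 fold, at -1.31, on 32 counts in lesion pools and 74 in lesion-free pools. That fold was -0.38 without lesion pool 1 and -2.09 without lesion pool 2.

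None of the other ligands (7 entries), other SMADs (5) or inhibitors and regulators (17) tested was called, and their medians were -0.40, 0.04 and -0.06. INHBA, an activin subunit, had the highest log2 fold of the ligands at 0.61, which was 0.0017 without lesion pool 3, and 1 of 2 entries of BMP2 the lowest, at -1.97 on 19 counts in lesion pools and 47 in lesion-free pools. The fold of that BMP2 entry was -0.43 without lesion pool 3 and -3.60 without lesion-free pool 5. Of the SMADs, SMAD2 (above) was highest and SMAD4, the shared partner, lowest at -0.12. The log2 fold of SMAD2 was 0.56 without lesion-free pool 5, and that of SMAD4 was 0.05 with plain library totals. Of the regulators, USP15, a deubiquitinase that stabilises the type I receptor, was highest at 0.84, and GREM1, a secreted antagonist of bone morphogenetic proteins, lowest at -1.15, which became 0.12 without lesion pool 2.

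Of 25 tested target genes 1 was called higher and 0 lower, with a median of 0.25. POSTN, the matricellular protein periostin, stood at 954, 338 and 592 CPM in lesion pools 1, 2 and 3, against 138, 125 and 154 CPM in lesion-free pools 4, 5 and 6. It was higher in 3 of 3 lesion pools, with a log2 fold of 2.06 (SE 0.33, limma adjusted p = 0.0055), and was called under all 12 alternatives (adjusted p up to 0.031). CCN1, a matricellular protein induced within minutes of stimulation, had the lowest log2 fold, at -1.32 (SE 0.39, limma adjusted p = 0.186). It stood at 197, 223 and 411 CPM in lesion pools 1, 2 and 3, against 398, 1173 and 603 CPM in lesion-free pools 4, 5 and 6, where lesion-free pool 4 lay just under lesion pool 3. It was called lower without lesion pool 3 (adjusted p = 0.0491).

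The other target genes named here were chosen after their values were seen. FN1, the matrix protein fibronectin, stood at 5636, 5451 and 6527 CPM in lesion pools 1, 2 and 3, against 1542, 2892 and 3456 CPM in lesion-free pools 4, 5 and 6, and was not called at a log2 fold of 1.23 (SE 0.32, limma adjusted p = 0.102). With plain library totals, which moved the median of all genes to 0.16, it was called higher at 1.41 (adjusted p = 0.0467). The contractile genes ACTA2 and TAGLN, smooth muscle actin and transgelin, had log2 folds of -0.76 and -0.95 (limma adjusted p = 0.312 and 0.246) with groups that did not overlap. Both are also on the smooth muscle list, of whose 5 tested genes 0 were called higher and 2 lower. Target genes were thus found on both sides of 0, with 15 of 25 above it and 10 below, beside 5821 above and 5852 below over all genes tested. At an unadjusted limma p under 0.05, 5 of the 25 were higher and 3 lower, beside 6.49% and 4.15% of all genes. Groups did not overlap for 7 higher and 2 lower, beside 10.5% and 8.97% of all genes. The list was not tested as a set.

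**Figure D5:**
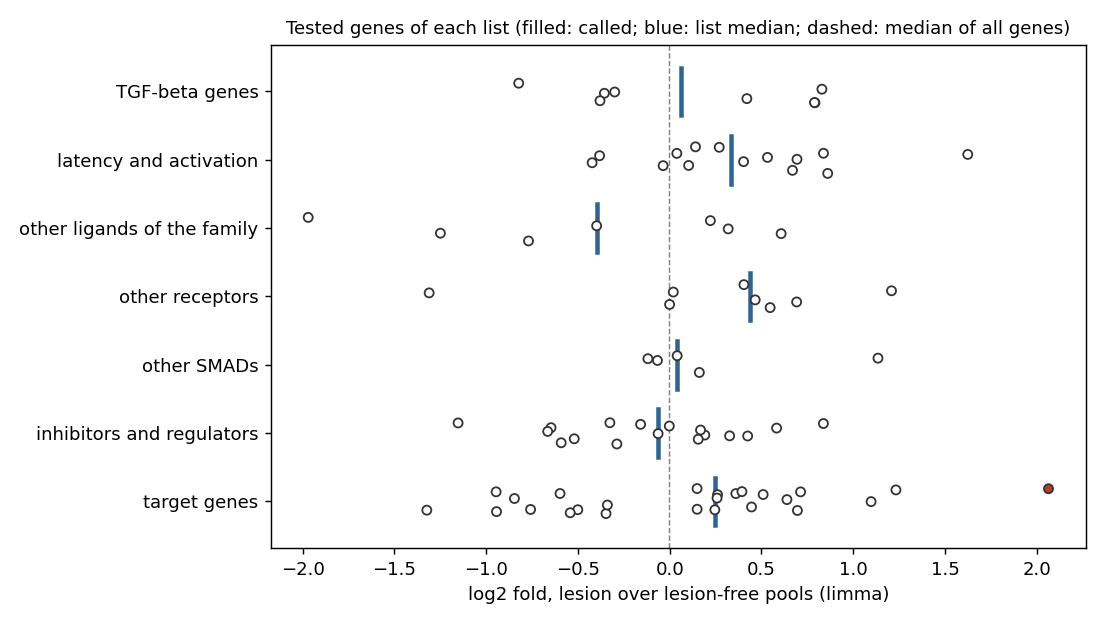
Log2 fold of lesion over lesion-free pools for each tested gene of the 8 TGF-beta genes and of 6 pathway lists, with 1 point per gene, a blue bar at each list's median and a dashed line at the median of all genes. The only filled point, called at an adjusted p under 0.05, is POSTN at 2.06 among the target genes, and the 8 TGF-beta genes lie from -0.82 to 0.83.

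For each of the 8 genes, the genes with the most similar profile were taken as those with the smallest root mean square difference in log2 CPM, centred on the mean over the 6 pools. With only 6 points and 11673 genes some profiles match closely by number alone, so these names are a description. TGFB1 was nearest to RCN1 (0.13) and PTGES (0.15), and TGFB3 to S1PR3 (0.21) and EMP2 (0.26). TGFB2 was nearest to AP2B1 (0.09) and PRRC2C (0.11), TGFBR1 to FEM1C (0.14) and ARHGAP5 (0.14), and TGFBR2 to SEC23IP (0.08) and STAT2 (0.09). TGFBR3 was nearest to IFRD1 (0.10) and PLOD2 (0.11), SMAD7 to THOC3 (0.15) and SLC25A43 (0.17), and TGFBI to PCBP1 (0.07) and PPP1R10 (0.08). None of these neighbours was another of the 8 genes or on a pathway list.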

How the data were processed

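RNA sequencing measured total RNA of 6 pools of abdominal aorta from *Sus scrofa*. Per the labels, RNA came from powdered tissue through a column kit, and libraries from a stranded total RNA kit. RSEM 1.3.0 and edgeR are named in the submitters' processing notes, with no role given for either. For the aligner, the genome build and the annotation, the answer is not given in the sources used here. Per the file headers, the authors deposited raw estimated counts per gene and per isoform, as whole numbers with commas in values of 1000 and more, which were removed. Since such columns could not be entered as plain counts, no count model was fitted.

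Library sizes carried trimmed-mean-of-M-values factors (30% of M and 5% of A trimmed). A gene entered the test with 1.00 CPM or more (10 counts at the median library size) in 3 or more pools and a sum of 15 counts or more. Log2 CPM, with 0.5 added to each count, went into limma 3.58.1 in R 4.3.3 with voom weights and robust empirical Bayes moderation. All p-values are two-sided. The steps were tested on simulated counts that gave every gene the same relative spread between pools. That spread was not taken from these pools, so the simulation does not show what size of change could be found in them. Intervals are 95% intervals, and floors cover counting error only. Replicate pools were compared before averaging, and their chi-square per degree of freedom of 23.2 to 103 showed no pool repeating another. Alternatives were median-of-ratios scaling, plain totals, no filter, limma-trend, sample quality weights, ordinary moderation and leaving out each pool.

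The members and lists were chosen with earlier results of these data known. The rule for naming pathway genes took all called genes and the highest and lowest log2 fold of each list. For each of the 8 genes it also took the 2 tested genes with a symbol whose centred log2 CPM profile was nearest over the 6 pools. Of 103 listed pathway genes, 74 matched by symbol, 10 by identifier and 1 by an older name. All 8 members carry the same name in the reference, while 3 marker entries, CD163, VWF and ITGA2B, carry another (SCART1, ANO2 and GPATCH8). Sequences and coordinates were not used here.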

Additional observations from a re-analysis of the deposited data

How the results depend on the processing

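Counts of called genes over the whole table, 113 higher and 9 lower, became 213 and 40 with sample quality weights and 171 and 17 without the low-count filter, and ran from 54 to 150 higher and 3 to 36 lower with a pool left out. None of the 8 genes was called under any of the 12 alternatives, and 0 of their isoforms and 0 of 6 in isoform use under those run for them. Alternatives kept the sign of each of the 8 log2 folds except for SMAD7. The smallest limma adjusted p reached was 0.0705, for TGFB3 without lesion-free pool 4. Among pathway genes, 3 were called higher with plain library totals and 2 with sample quality weights, against 1. Leaving out a pool gave 1 to 2 higher genes and 0 to 1 lower. The difference in TGFB3 share ran from -31.3 to -11.0 percentage points when a pool was left out, and was -19.6 from the isoform table. The cause of these changes was not tested. No paired analysis was possible because the groups share no pool number. With 3 pools a group, the 95% intervals of the 8 genes reach from -2.12 (TGFB3) to 1.57 (TGFBR1 and TGFBR2) on the log2 scale, which limits what could be detected.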
